A study of Mus musculus with 2 samples.

Results

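The 10 genes described here encode transcription factors of the lateral ganglionic eminence and of the striatum that it forms: the homeobox genes Gsx1 and Gsx2, the zinc-finger genes Sp9 and Zfp503, the homeobox genes Meis1 and Meis2 of the TALE class, the forkhead genes Foxp1, Foxp2 and Foxp4, and the helix-loop-helix gene Ebf1. They were taken by symbol from the gene tables, and all 10 had a row, out of 42462 named mouse genes and 21461 nuclear protein-coding genes. The series holds 2 total RNA-seq libraries of whole forebrain from healthy mouse embryos of the strain B6NCrl at embryonic day 12.5, with no engineered allele and no treatment in the labels. Replicate 1 was a pool of 120 embryos and replicate 2 a pool of 68, each of mixed sex, and both list the same donor entry. The labels call them biological replicates of 1 group, so no comparison of conditions exists and no p-value is given: the spread shown is that between these pools.

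The lateral ganglionic eminence is a swelling of the ventral telencephalon whose dividing cells give rise to the projection neurons of the striatum and to interneurons of the olfactory bulb. Gsx2 acts in its progenitors to set lateral identity, and Gsx1 acts beside it. Meis2, Ebf1, Zfp503, Foxp1, Foxp2 and Sp9 are known from the cells that leave the cycle there and become striatal neurons. Several are used elsewhere too: Meis, Ebf and Foxp genes also act in cortex, thalamus, mesenchyme and blood, so in whole forebrain their RNA cannot be credited to the eminence alone. In bulk tissue, fewer cells of a type and less RNA per cell cannot be told apart.

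The total of expected counts was 33711030 for replicate 1 and 34578499 for replicate 2. The listed genes placed both libraries in forebrain: the 12 dorsal telencephalon genes, the 8 genes shared by all ganglionic eminences and the 5 thalamus and hypothalamus markers reached 1 TPM in both pools, against 0 of 5 midbrain and hindbrain markers, of which En2 and Hoxa2 were listed at 0 in both. TPM is a relative abundance of transcripts scaled by length, so that levels of different genes can be compared. The 8 mesenchyme markers summed to 718 TPM for replicate 1 and 871 TPM for replicate 2, and the 5 erythroid genes to 5976 and 8090 TPM, so blood and mesenchyme RNA entered both pools. B cell markers, given because Ebf1 is also the pioneer factor of that lineage, reached 1 TPM for 0 of 5 genes, and Cd3e of T cells was listed at 0.

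All 10 factors were above 1 TPM in both libraries, which 60.0% of nuclear protein-coding genes were. Their mean levels spanned 12.4-fold around a median of 21.2 TPM, beside one of 21.6 TPM over the 12867 nuclear protein-coding genes detected in both pools. Meis2 was the highest and stood at rank 1911 of the 21461 nuclear protein-coding genes. Foxp1 followed at rank 2805, then Meis1 at 4664, Foxp2 at 5796, Ebf1 at 6440, Gsx2 at 6551, Foxp4 at 6868, Sp9 at 8432, Zfp503 at 8845 and Gsx1 at 9792.

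**Figure D1:**
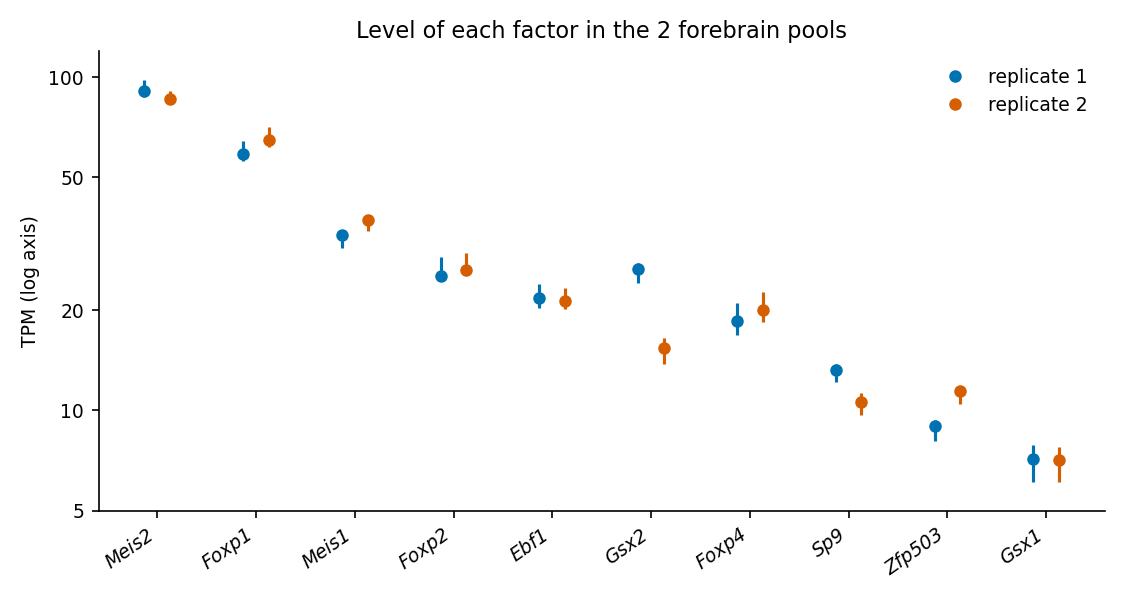
TPM of each factor (log axis) in replicate 1 (blue) and replicate 2 (orange), ordered by the mean. Lines are the deposited intervals, which belong to the posterior mean TPM and so need not be centred on the point. Meis2 is highest at 90.7 and 85.9 TPM and Gsx1 lowest at 7.14 and 7.09 TPM, and Gsx2 is the factor whose points lie farthest apart.

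To ask whether neighbours in this order differed beyond the pools, the difference of log2(TPM + 1) had to have the same sign in both pools and to exceed in each the larger change of either gene between pools. By this rule 5 of the 9 neighbouring steps held: Meis2 over Foxp1, Foxp1 over Meis1, Meis1 over Foxp2, Foxp2 over Ebf1, and Foxp4 over Sp9. The 4 steps that did not hold were Ebf1 to Gsx2, Gsx2 to Foxp4, Sp9 to Zfp503, and Zfp503 to Gsx1. Gsx2 was above Ebf1 in replicate 1 and below it in replicate 2, and Sp9 and Zfp503 changed places in the same way.

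Gsx1 and Gsx2 are paralogous homeobox genes on chromosome 5. Gsx2 (ENSMUSG00000035946, chr5:75075601-75077893, plus strand, GRCm38) had 26.5 TPM in replicate 1 and 15.4 TPM in replicate 2, from 822 and 492 expected counts. Gsx1 (ENSMUSG00000053129, chr5:147188696-147190947, plus strand) had 7.14 and 7.09 TPM, from 241 and 249 counts. Gsx2 was thus the more abundant of the pair in both pools. Gsx2 exceeded Gsx1 in log2(TPM + 1) by 1.76 in replicate 1 and by 1.02 in replicate 2, beside a change of Gsx2 between pools of 0.75. Gsx2 made up 78.8% of the summed Gsx TPM in replicate 1 and 68.5% in replicate 2.

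The homeobox, which encodes the DNA-binding homeodomain, is where the 2 genes are most alike, and it is shown so that it can be seen how far reads could tell them apart. The in-frame window of 180 coding bases with the closest match spans codons 148 to 207 of the 261 of Gsx1 (chr5:147189810-147189989) and codons 205 to 264 of the 305 of Gsx2 (chr5:75077001-75077180). Capitals mark the bases that differ.
Gsx1 window: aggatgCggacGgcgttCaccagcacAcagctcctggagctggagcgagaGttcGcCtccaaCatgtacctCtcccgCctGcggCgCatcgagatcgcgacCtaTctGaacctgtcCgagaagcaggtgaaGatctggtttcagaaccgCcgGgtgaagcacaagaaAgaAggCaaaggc
Gsx2 window: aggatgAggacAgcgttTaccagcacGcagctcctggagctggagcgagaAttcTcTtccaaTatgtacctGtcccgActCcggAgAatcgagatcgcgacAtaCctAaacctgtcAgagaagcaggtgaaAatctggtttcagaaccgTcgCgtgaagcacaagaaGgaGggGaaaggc
Of the 180 bases 157 are the same, or 87.2%, and 20 of the 23 differences fall on the last base of a codon. The longest run of identical bases between any coding transcripts of the 2 genes is 23 bases, far shorter than the 100-base reads that the deposited effective lengths imply. The same holds for the other 10 family pairs compared here, whose longest identical runs were between 17 bases for Ebf1 with Ebf2 and 44 bases for Sp9 with Sp8.

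Gsx2 was also the 1 factor of 10 past 1.3-fold between the pools, at 1.72-fold higher in replicate 1, with a 95% Clopper-Pearson interval of 1.54 to 1.93 that covers counting error only. Of the 15192 genes at a mean of 1 TPM or more, 14.8% were past this fold in either direction and 4.90% were higher in replicate 1 by it, so 1 of 10 is near the background. The interval excluded 1 for 6 of 10 factors (Gsx2, Sp9, Foxp1, Meis1, Meis2 and Zfp503), against 37.4% of all those genes. The median coefficient of variation between the pools was 6.13% for the 10 factors and 5.43% over all genes.

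Genes that share the eminences with Gsx2 also differed between the pools. Of the 8 genes common to all eminences, 4 were higher in replicate 1 past 1.3-fold and none in replicate 2. They are Dlx homeobox genes, which drive the differentiation of GABAergic neurons in the eminences: Dlx1 had 246 TPM in replicate 1 and 171 TPM in replicate 2, Dlx2 had 109 and 70.8 TPM, Dlx5 had 83.6 and 55.7 TPM, and Dlx6 had 12.9 and 8.29 TPM. Of 6 medial eminence genes at a mean of 1 TPM or more, 3 were higher in replicate 1: Nkx2-1, which sets medial identity, had 54.3 TPM in replicate 1 and 30.7 TPM in replicate 2, Lhx6 had 28.1 and 18.0 TPM, and Lhx8 had 45.4 and 20.6 TPM. Nkx6-2 ran the other way, with 4.86 TPM in replicate 1 and 6.88 TPM in replicate 2.

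Past the same fold were 0 of the 12 dorsal telencephalon genes, 0 of the 3 caudal eminence genes and 0 of the 5 thalamus and hypothalamus markers. Inside it, the dorsal genes leaned to replicate 2. Their median log2 ratio of replicate 1 over replicate 2 was -0.189, beside -0.0113 over all genes at a mean of 1 TPM or more. Of them Tbr1 and Neurod6 ran the other way, at ratios of 1.07 and 1.08. The median was 0.277 for the caudal genes and -0.0563 for the thalamus and hypothalamus markers. The other 9 factors stayed inside 1.3-fold as well. Gsx1, which is expressed in progenitors too, had a pool ratio of 1.01 with an interval of 0.840 to 1.21. All 5 erythroid markers and 4 of 8 mesenchyme markers (Col1a2, Dcn, Twist1 and Foxc1) were higher in replicate 2 past 1.3-fold, and so was Acta2 of mural cells. Of the 5 retina and pigment epithelium markers, which summed to 1.61 TPM in replicate 1 and 6.10 TPM in replicate 2, Pmel was the only one at a mean of 1 TPM or more, with 0.71 and 3.61 TPM. Six6 had 0.22 and 1.34 TPM, and Crx was listed at 0 in both. Their part in the difference of Gsx2 was not tested.

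**Figure D2:**
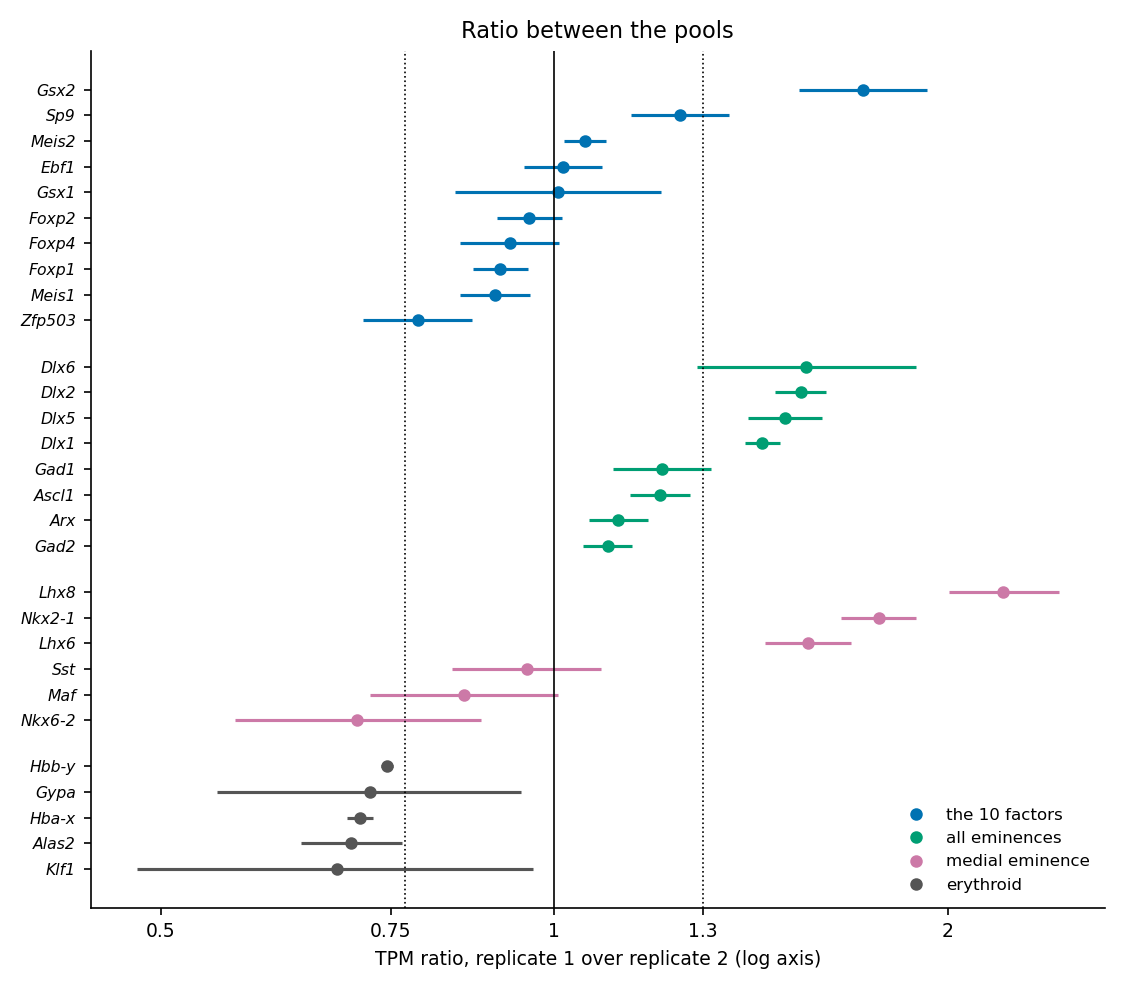
TPM in replicate 1 over replicate 2 (log axis) for the 10 factors and for listed genes of all eminences, of the medial eminence and of erythroid cells at a mean of 1 TPM or more. Lines are 95% counting intervals, the solid line marks equality and the dotted lines a 1.3-fold difference. Gsx2 at 1.72 lies beyond the Dlx genes at 1.44 to 1.56 and short of Nkx2-1 at 1.77 and Lhx8 at 2.21 of the medial eminence, and the other 9 factors lie between 0.786 for Zfp503 and 1.25 for Sp9.

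Sp9 and its paralog Sp8 are zinc-finger factors of the lateral eminence, with Sp9 known from striatal projection neurons and Sp8 from olfactory bulb interneurons. Sp9 (ENSMUSG00000068859, chr2:73271925-73284706, plus strand) had 13.3 TPM in replicate 1 and 10.6 TPM in replicate 2, a ratio of 1.25 with an interval of 1.14 to 1.36. Sp8 had 23.5 and 20.1 TPM, so it was higher than Sp9 in both pools by 0.78 and 0.86 in log2(TPM + 1). Of the 7 lateral eminence and olfactory bulb lineage genes, all reached 1 TPM in both pools, and Etv1, an ETS-family factor, was the only one past 1.3-fold, with 35.2 TPM in replicate 1 and 18.3 TPM in replicate 2. Sp9-201, a transcript of 484 codons, held 99.2% of the gene's TPM in replicate 1 and 96.0% in replicate 2. The annotated span of Sp9 overlaps Cir1 on the other strand, which had 21.7 and 20.9 TPM, and the sources used here do not say whether reads were counted by strand.

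Zfp503, also called Nolz1, is a zinc-finger repressor expressed as striatal neurons leave the ventricular zone. It (ENSMUSG00000039081, chr14:21983959-21989601, minus strand) had 8.97 TPM in replicate 1 and 11.4 TPM in replicate 2. It was the factor that stood lowest in replicate 1 relative to replicate 2, at a ratio of 0.786 with an interval of 0.714 to 0.866. Its paralog Zfp703 had 7.97 and 9.45 TPM. The pair did not meet the rule, since their difference in log2(TPM + 1) of 0.15 and 0.25 was smaller than the change of Zfp503 itself between pools, 0.32.

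Meis proteins bind DNA with Pbx partners and take part in limb, eye, blood and forebrain patterning. In the striatal lineage Meis2 is the best known. Meis2 (ENSMUSG00000027210, chr2:115863064-116065839, minus strand) had 90.7 TPM in replicate 1 and 85.9 TPM in replicate 2, from 5820 and 5783 counts. Meis1 (ENSMUSG00000020160, chr11:18879817-19018985, minus strand) had 33.5 and 37.2 TPM. The remaining member of the family, Meis3, had 74.3 and 77.8 TPM, which put it between them: Meis2 was above Meis3 by 0.28 and 0.14 in log2(TPM + 1), and Meis1 below it by 1.13 and 1.04. All 3 pairs met the rule. Meis2 made up 45.7% of the family's TPM in replicate 1 and 42.8% in replicate 2, Meis3 37.4% and 38.7%, and Meis1 16.9% and 18.5%.

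Of the 8 other TALE genes listed, from the Pbx, Pknox and Tgif families, all reached 1 TPM and 0 were past 1.3-fold. Tgif2 was the highest, with 73.3 TPM in replicate 1 and 72.9 TPM in replicate 2. Pbx3, one of the Pbx genes listed, had 48.4 and 50.1 TPM. The long noncoding gene 2700033N17Rik lies 378 bases upstream of Meis2 on the same strand and had 11.2 and 10.6 TPM, which is 12.3% of the Meis2 level in each pool. Inside Meis1 the antisense gene Gm16141 had 4.02 and 6.14 TPM.

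The Meis2 RNA pool mixed forms that differ at 2 places in the coding sequence. The transcript with the largest share, Meis2-206 of 394 codons, held 30.0% of the gene's TPM in replicate 1 and 29.1% in replicate 2. Meis2-201 of 477 codons held 19.9% and 18.4%, and Meis2-205 of 401 codons 11.9% and 10.1%. The authors' posterior mean TPM turned the order of these: Meis2-201 then held 12.2% and 10.2%, Meis2-205 15.3% and 16.2%, and Meis2-203, which had 2.12% and 4.01% by TPM, held 8.68% and 11.0%. The deposited interval of Meis2-201 ran between 3.19 and 19.3 TPM in replicate 1 and reached 18.1 TPM in replicate 2 with a lower bound near 0. The retained-intron transcript Meis2-213 held 11.8% and 13.7%.

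The first place is the start of an exon, where some forms carry 21 more bases, or 7 codons (capitals, chr2:115867359-115867379, minus strand). It is shown with the coding bases that flank it in the spliced transcript.
Meis2: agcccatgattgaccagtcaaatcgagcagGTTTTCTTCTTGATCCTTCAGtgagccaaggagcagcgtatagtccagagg
Transcripts with the 21 bases held 46.1% of the TPM of all transcripts that cross this exon in replicate 1 and 43.3% in replicate 2, a mean of 44.7% ± 2.0 (SD, n = 2). No coding transcript of Meis1 in the annotation had such a choice here, and Meis1 matched the 60 flanking bases of Meis2 at 48 positions.

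The second place is a 95-base exon near the end. With it, the coding sequence ends inside the exon, and without it the reading frame runs on into another end, as in the 477 codons of Meis2-201. Among the transcripts that either include or skip this exon, and not over the whole gene, forms with it made up 70.8% of the TPM of Meis2 in replicate 1 and 69.2% in replicate 2 (mean 70.0% ± 1.2). In Meis1, forms with the matching 95-base exon made up 93.3% and 96.4% of the TPM of transcripts that include or skip it (mean 94.9% ± 2.2), a share that counts the noncoding Meis1-203. Skipping forms were thus the smaller share in both genes, and their share in Meis2 was above that in Meis1 in both pools. In Meis1 that share came from different transcripts in each pool. In replicate 1 it was Meis1-202 and Meis1-207, both annotated for nonsense-mediated decay, with 1.40 and 0.44 TPM. In replicate 2 it was the coding Meis1-209, with 1.02 TPM. The deposited intervals of Meis1-202 in replicate 1 and Meis1-209 in replicate 2 had lower bounds near 0. The coding bases of the exon with the stop codon are shown because they are close to identical in the paralogs: 56 of 59 bases are the same, and capitals mark those that differ (chr11:18884024-18884082 and chr2:115866846-115866904, both minus strand).
Meis1-201 end: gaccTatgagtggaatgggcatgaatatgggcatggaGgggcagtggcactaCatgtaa
Meis2-206 end: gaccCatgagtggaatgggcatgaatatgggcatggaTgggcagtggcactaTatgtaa

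Meis1 had less of its RNA in coding transcripts than any other factor. Meis1-201, of 390 codons, held 59.5% of the gene's TPM in replicate 1 and 53.6% in replicate 2. The processed transcript Meis1-203 held 17.0% and 20.4%, and the retained-intron transcript Meis1-205 9.62% and 11.9%. All coding transcripts of Meis1 together came to 61.5% and 59.7%, or 20.6 and 22.2 TPM, which is no longer separable from the 20.8 and 20.0 TPM of Foxp2 counted in the same way.

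Foxp proteins are forkhead repressors that dimerise with each other. In Foxp1 and Foxp2, long runs of glutamine codons lie before the part that encodes the DNA-binding domain. Foxp1 and Foxp2 mark striatal projection neurons, and Foxp2 is known from inherited speech disorder in humans. Foxp1 (ENSMUSG00000030067, chr6:98925338-99522721, minus strand) had 58.9 TPM in replicate 1 and 64.8 TPM in replicate 2. Foxp2 (ENSMUSG00000029563, chr6:14901349-15441977, plus strand) had 25.3 and 26.4 TPM. Foxp4 (ENSMUSG00000023991, chr17:47867133-47924645, minus strand) had 18.5 and 20.0 TPM.

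The order Foxp1, Foxp2, Foxp4 held in both pools, and all 3 pairs met the rule. The shares of the family's TPM differed little between pools: Foxp1 made up 57.4% in replicate 1 and 58.2% in replicate 2, Foxp2 24.6% and 23.7%, and Foxp4 18.0% in each. Foxp3, the factor of regulatory T cells, was listed at 0.02 and 0.06 TPM, close to the 0.043 TPM that 3 counts give in replicate 1.

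Foxp1 was the factor whose leading transcript depended on the scale. By TPM the leading form was Foxp1-225, with 31.7% in replicate 1 and 29.9% in replicate 2, ahead of Foxp1-204 with 21.9% and 20.8%. By expected counts Foxp1-204 led with 1841 counts in replicate 1 and 2002 in replicate 2, or 59.6% and 58.2% of the gene, while Foxp1-225 had 659 and 710. Foxp1-204 is 7177 bases long and Foxp1-225 is 1848 bases, so a read weighs more in TPM for the shorter one. For the other 9 factors the same transcript led by TPM, by posterior mean TPM and by counts in replicate 1.

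Foxp1-225 starts inside the gene, at the last of 3 RefSeq starts along it, and encodes 577 codons against 705 in Foxp1-204. The 4 transcripts that begin in the RefSeq window at this internal start (window A) held 36.7% of Foxp1 TPM in replicate 1 and 33.97% in replicate 2. Those beginning in the middle window (window B) held 3.23% and 5.29%, and those in the outermost window (window C) 1.37% and 3.43%. The rest, Foxp1-204 among them, begin outside these windows. Windows A and B are shown because their transcripts differ in level by more than any change between pools: 21.6 and 22.0 TPM for window A, against 1.91 and 3.44 TPM for window B. Each is 250 bases before and 50 after a start, from RefSeq on GRCm38.p6, with motif matches in capitals (window A chr6:99028249-99028548, window B chr6:99266466-99266765, both minus strand).
Foxp1 window A: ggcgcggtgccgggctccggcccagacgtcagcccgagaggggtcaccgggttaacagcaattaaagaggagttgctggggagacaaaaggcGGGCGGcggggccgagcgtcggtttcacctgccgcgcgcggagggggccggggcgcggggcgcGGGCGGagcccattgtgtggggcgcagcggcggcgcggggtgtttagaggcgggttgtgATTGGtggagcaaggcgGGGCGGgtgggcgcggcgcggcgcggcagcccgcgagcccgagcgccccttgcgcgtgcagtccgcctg
Foxp1 window B: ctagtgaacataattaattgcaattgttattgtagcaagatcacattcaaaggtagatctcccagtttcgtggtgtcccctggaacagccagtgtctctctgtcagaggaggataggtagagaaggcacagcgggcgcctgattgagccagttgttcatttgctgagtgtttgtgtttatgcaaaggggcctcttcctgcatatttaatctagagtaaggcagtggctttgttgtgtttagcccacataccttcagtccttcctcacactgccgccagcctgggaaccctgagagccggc
Window A is 75.3% G and C with 44 CpG, and window B 48.7% with 5 CpG, beside medians of 52.7% and 7 CpG over 32851 RefSeq windows. Searched on both strands, GGGCGG matched 3 times in window A and was present in 35.7% of all windows. CCAAT matched once (as ATTGG) and was present in 37.4%. TATAAA, present in 13.6% of all windows, had no match in either, and none of the 3 motifs had a match in window B. The transcripts of window C, which is not shown, had 0.8 TPM in replicate 1 and 2.23 TPM in replicate 2, below those of window B. Yet window C is 60.3% G and C with 13 CpG and 1 match to GGGCGG. How these features relate to transcript level was not tested.

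The third Foxp1 transcript above 10%, Foxp1-216, is a 420-base noncoding transcript at the outer end of the gene with 12.7% of TPM in replicate 1 and 15.8% in replicate 2. It rests on 48 and 69 counts. A retained-intron transcript that the deposited tables file under Foxp1 is named Gm20696-202 in the annotation used here and held 4.12% and 2.55%.

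The glutamine-rich stretch of Foxp1 is cut at alternative places. Some forms keep 96 more bases at the start of a 192-base exon (capitals, chr6:99075950-99076045, minus strand). They made up 90.9% in replicate 1 and 91.1% in replicate 2 of the TPM of transcripts that use either boundary, not of the whole gene. Foxp1-225 starts downstream of this exon and is outside the share. All TPM without the 96 bases was in Foxp1-226, annotated for nonsense-mediated decay, at 1.81 and 1.78 TPM.
Foxp1: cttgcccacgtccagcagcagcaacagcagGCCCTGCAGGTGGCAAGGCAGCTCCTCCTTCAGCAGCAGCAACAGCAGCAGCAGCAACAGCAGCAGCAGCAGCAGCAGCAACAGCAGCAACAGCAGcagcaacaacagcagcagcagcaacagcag
Foxp2 has a like choice of 63 bases (capitals, chr6:15377888-15377950, plus strand), kept in 93.6% and 93.7% of the TPM of forms that use this or the shorter boundary.
Foxp2: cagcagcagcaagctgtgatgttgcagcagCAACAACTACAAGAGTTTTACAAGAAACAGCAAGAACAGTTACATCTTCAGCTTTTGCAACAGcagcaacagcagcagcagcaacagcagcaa
Both stretches are rich in CAG and CAA repeats, in which a short read can match at several offsets, so the shares rest on how the authors' quantifier divided such reads.

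Most Foxp2 TPM was in a pair of transcripts with the same coding sequence of 714 codons and different first exons. Foxp2-207, which starts at 14901349, held 30.9% in replicate 1 and 28.6% in replicate 2, and Foxp2-201, which starts at 15185506 some way inside the gene, held 28.4% and 27.6%. Their shares were thus close to each other in both pools. Foxp2-203, with a short coding sequence of 83 codons, held 17.9% and 13.7%.

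Foxp4-204, of 672 codons, held 34.3% of Foxp4 TPM in replicate 1 and 36.0% in replicate 2, and Foxp4-202, of 673 codons, held 27.2% and 27.6%. They differ by 1 codon at an exon boundary (capitals, chr17:47878495-47878497, minus strand), and forms with it made up 51.9% and 48.6% of the TPM of transcripts that use either boundary, not of the whole gene. By TPM the form with the codon was thus the larger in replicate 1 and the smaller in replicate 2. By expected counts it was the smaller in both pools, at 46.2% and 42.9%. The deposited interval of Foxp4-202 ran between 2.81 and 6.38 TPM in replicate 1 and between 2.66 and 6.94 TPM in replicate 2. That of Foxp4-201, which also has the codon, ran between 0.138 and 2.83 TPM and between 0.0761 and 2.74 TPM.
Foxp4 codon: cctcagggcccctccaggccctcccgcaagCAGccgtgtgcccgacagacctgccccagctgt
A longer choice of 36 bases, or 12 codons (chr17:47875689-47875724), was present in 13.9% of the TPM of transcripts with either boundary in replicate 1 and 9.19% in replicate 2, all of it in Foxp4-201, which had 9.95% and 6.45% of the gene's TPM.
Foxp4 longer choice: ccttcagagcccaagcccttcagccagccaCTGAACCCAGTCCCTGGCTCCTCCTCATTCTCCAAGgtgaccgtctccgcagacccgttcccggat
The short retained-intron transcripts Foxp4-206 with 9.95% and 14.8% and Foxp4-207 with 12.1% and 9.66% rest on 18 to 31 counts each.

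Of the 10 corepressors listed that bind Foxp or Zfp503 and Zfp703 proteins, all reached 1 TPM and 0 were past 1.3-fold between the pools. The histone deacetylase gene Hdac2 had 387 TPM in replicate 1 and 371 TPM in replicate 2, Ctbp1 had 359 and 365 TPM, and Hdac1 had 182 and 172 TPM.

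Ebf1 promotes differentiation of postmitotic striatal neurons of the direct pathway. Ebf1 (ENSMUSG00000057098, chr11:44617317-45008091, plus strand) had 21.7 TPM in replicate 1 and 21.4 TPM in replicate 2, a ratio of 1.02 with an interval of 0.949 to 1.09. Ebf2 had 18.4 and 16.8 TPM, Ebf4 2.45 and 2.23 TPM, and Ebf3 1.95 and 2.74 TPM. Ebf1 was above Ebf2 by 0.23 and 0.33 in log2(TPM + 1), against a change between pools of 0.12. Counted over coding transcripts alone the 2 genes were not separated. Ebf1 made up 48.8% of the family's TPM in replicate 1 and 49.5% in replicate 2, and Ebf2 41.3% and 39.0%.

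Ebf1-202, of 592 codons, held 55.7% of Ebf1 TPM in replicate 1 and 57.3% in replicate 2, and Ebf1-201, of 591 codons, 20.4% and 23.8%. The codon between them sits at the start of an exon (capitals, chr11:44907904-44907906, plus strand), and forms with it made up 74.7% and 71.5% of the TPM of the transcripts that use either boundary, not of the whole gene.
Ebf1: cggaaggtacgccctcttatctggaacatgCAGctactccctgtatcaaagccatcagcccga
The noncoding Ebf1-207, which begins at 44618116, downstream of the start of Ebf1-201 and Ebf1-202 at 44617317, held 12.1% and 14.6%.

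**Figure D3:**
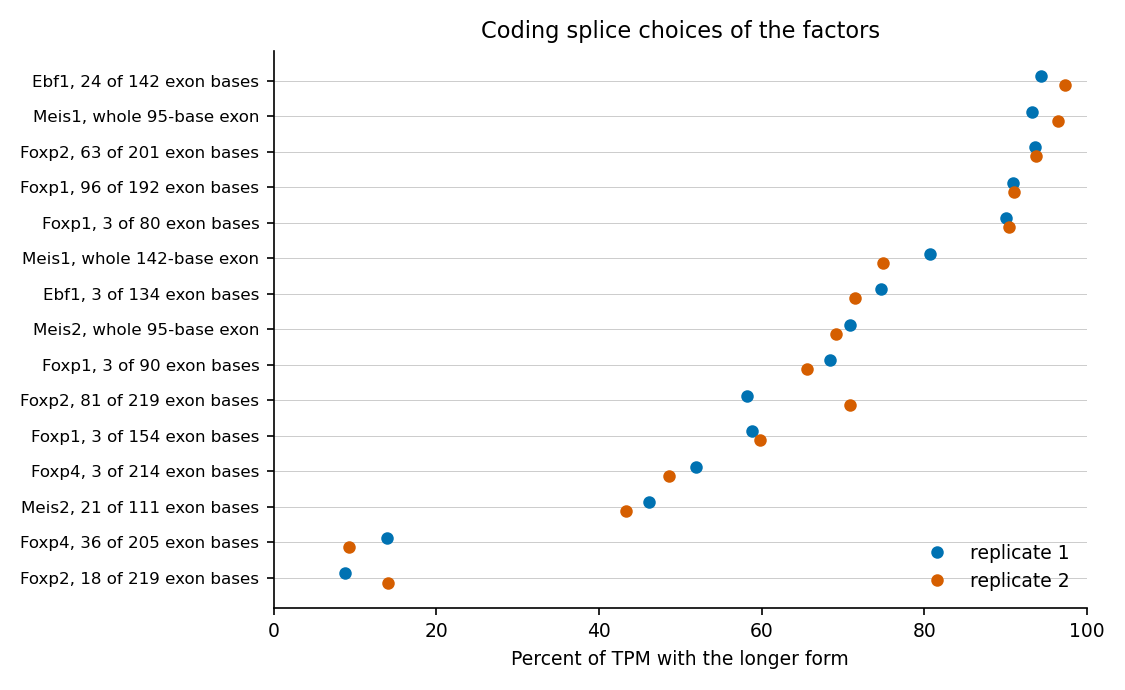
Percent of TPM in transcripts with the longer form, out of the transcripts with either form, at each coding splice choice of the factors, in replicate 1 (blue) and replicate 2 (orange). Choices where the longer form was between 2% and 98% in both pools are drawn. The Meis2 choice of 21 bases lies at 46.1% and 43.3% and the Foxp4 choice of 3 bases at 51.9% and 48.6%, and most pairs of points lie within a few percent of each other. The widest gap is at the Foxp2 choice of 81 bases, at 58.2% and 70.8%. All TPM of its longer form was in the retained-intron transcript Foxp2-213, as the shares count noncoding transcripts too.

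Across the 10 factors, 25 transcripts held 10% or more of their gene in at least 1 pool, and the same transcript led in both pools for all 10. Gsx1 and Zfp503 each have a single transcript in the tables, and Gsx2-201 held 92.2% in replicate 1 and 87.7% in replicate 2, with the remainder in Gsx2-202. The share in retained-intron transcripts was higher in replicate 2 for all 5 factors that have such transcripts (Foxp1, Foxp2, Foxp4, Meis1 and Meis2). The same direction was seen in 60.4% of the 5284 protein-coding genes with such a transcript at a mean of 1 TPM or more. The largest of these differences was in Foxp2, with 12.9% in replicate 1 and 19.5% in replicate 2, beside medians of 9.35% and 10.3% over all such genes.

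**Figure D4:**
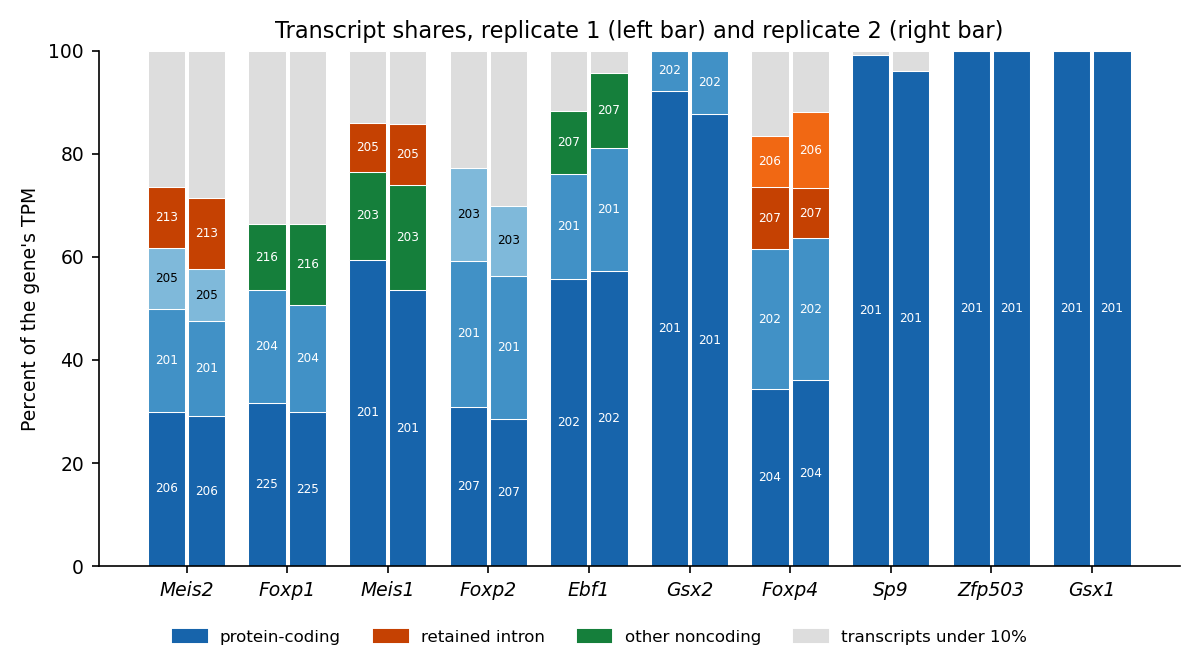
Percent of each gene's TPM in its transcripts, with replicate 1 as the left and replicate 2 as the right bar. Numbers in the bars are the last part of transcript names, blue marks protein-coding, orange retained-intron and green other noncoding transcripts, and grey the transcripts under 10% in both pools. Gsx1 and Zfp503 are a single block, while Foxp1, Foxp2 and Meis2 are divided among 3 or 4 named transcripts and a large remainder.

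Genes of more mature striatal projection neurons were present at lower levels. Of 16 listed, 13 reached 1 TPM in each pool, and the median over the 16 was 3.81 TPM. The highest were transcription factors: Isl1 had 61.1 TPM in replicate 1 and 54.1 TPM in replicate 2, Bcl11b had 44.4 and 37.6 TPM, and Zfp521 had 26.1 and 26.5 TPM. The only one past 1.3-fold was Rgs9, a regulator of G-protein signalling, with 2.46 TPM in replicate 1 and 1.69 TPM in replicate 2, from 129 and 95 counts.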

How the data were processed

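Gene and transcript tables of 2 libraries were analysed. Per the labels, 10 ng of mirVana-extracted RNA over 200 bases went into a library with ERCC spike-ins. The deposited text file says that each table was made from transcriptome alignments of that replicate on mm10 with GENCODE M4. The sources used here do not give the aligner, the quantifier or the strand setting. A later deposit that supersedes the series was not used here. The authors deposited expected counts (estimated reads, not whole), TPM and posterior mean TPM relative to all features including spike-ins, FPKM, the bounds of the TPM interval (a signal deposited by the authors, of a confidence level that they do not state), and the percent of gene TPM per transcript.

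Names, positions and exons came from GENCODE M21 on GRCm38 by identifier, and exons were compared only for transcripts of equal length in both annotations. Splice shares are sums of TPM over transcripts with each form. The members and gene lists were chosen with earlier results of these data known. Named are all 10 factors, their paralogs, of each other list the 3 highest genes and any past 1.3-fold at a mean of 1 TPM or more, and factor transcripts at 10% or more, with a few others chosen after their values were seen. One listed gene that this rule names is not reported here. TMM factors (edgeR 4.0.16) and DESeq2 1.42.0 size factors on rounded counts served as alternative scalings. Intervals are at 95% and cover only counting error, as reads lacking molecular identifiers need not be independent. Ratio calls and intervals were run on simulated counts with counting error alone, which the intervals assume. That run could not show how they fare with spread between pools. Other steps used Python 3.11.15, pandas 2.3.3, scipy 1.17.1 and R 4.3.3.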

Additional observations from a re-analysis of the deposited data

How the results depend on the processing

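No paired analysis was possible because the series holds 1 group of 2 pools. All 10 factors were detected under every alternative run: posterior mean TPM, thresholds of 0.5 and 2 TPM, TPM rescaled to nuclear protein-coding genes, coding transcripts alone, and without either replicate. The median level of the factors moved to 26.6 TPM when rescaled to nuclear protein-coding genes, and to 19.0 TPM over coding transcripts alone, an alternative chosen after seeing the data. The main value was 21.2 TPM. Gsx2 was past the fold under all 10 alternatives. It was the single factor past it, except at 1.2-fold, where Sp9 and Zfp503 brought the count to 3. Over the alternative scalings, with no pseudocount, the Gsx2 ratio ranged from 1.70 by FPKM to 1.76 with TMM factors. The pair rule was met by 10 of 11 pairs with a pseudocount of 0.1, posterior mean TPM and FPKM, and by 9 with counts not divided by length and with coding transcripts alone. Ebf1 over Ebf2 was lost under both of these, and Meis1 under Meis3 with counts, where Zfp503 and Zfp703 met it. The rule must hold in each pool, so leaving out either replicate, at 10 pairs, could lose none. Between 22 and 26 transcripts held 10% of their gene under the alternatives, with 22 and 24 when 1 replicate was left out. Of 132 listed genes, 109 reached 1 TPM in both pools, 113 by posterior mean, and 109 and 111 in a single pool. Short noncoding transcripts of 18 to 69 counts carry TPM shares that few reads decide, and with 2 pools a difference between them has no replicate check.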
